A study of Mus musculus with 12 samples.

Results

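Dendritic cells grown from the bone marrow of Arc knockout mice were compared with those of wildtype mice, both left without a stimulus. The comparison used 6 of the 12 arrays of the series, chosen by their titles: 3 of untreated knockout cells and 3 of untreated wildtype cells. It covered 22180 genes. Of 34390 probe sets on the array, 23521 were annotated to 1 gene, and each gene was read from the one with its highest mean signal, taken over all 12 arrays. The values are the log2 signals the authors deposited, and every difference is knockout minus wildtype, so that 1 log2 unit is a 2-fold difference in signal.

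Both groups came from mice aged 8 weeks, labelled male, with the strain background C57BL/6. The knockout group carries the label Arc/Arg3.1 -/-. The sources used here give neither the making of the allele nor whether the wildtype mice were littermates. After lysis of the red cells, marrow was cultured with the growth factor GM-CSF at 20 ng/ml, and the loosely attached cells were taken on day 7. Untreated cells were kept in medium for 30 min, washed and rested for 1 h, in parallel with cells of both genotypes that received bacterial lipopolysaccharide (LPS) at 100 ng/ml. Arrays of a group are labelled as 3 biological replicates, with no word on whether each culture had its own animal. The p-values therefore measure the spread between these cultures, which may be technical.

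Arc, also called Arg3.1, is an immediate early gene, one whose transcript appears within minutes of a stimulus. In neurons its protein binds the endocytic proteins endophilin and dynamin and promotes the removal of AMPA-type glutamate receptors from the synapse. The protein descends from a retrotransposon Gag protein and can assemble into capsid-like shells. Dendritic cells take up antigen in tissues and carry it to lymph nodes, a movement that depends on actin remodelling and on the chemokine receptor Ccr7. The series title names Arc as a mark of migrating cells of this kind and as a regulator of actin.

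The 3 untreated wildtype arrays were unusually alike. Any 2 of them differed by an SD of 0.105 to 0.108 over the 6440 genes whose mean log2 signal exceeded 8. The same SD was 0.193 to 0.271 between untreated knockout arrays and 0.193 to 0.438 over the 9 pairs within the other groups. The mean of these 3 arrays was therefore counted as 1 sample, which gave 10 samples in the main fit, and results with 12 separate samples are given beside it. Signals were also spread differently: the 25th percentile of an array was 5.67 to 5.72 in untreated wildtype and 5.54 to 5.60 in untreated knockout cells, and the 75th percentile was 7.89 to 7.92 and 7.94 to 7.96. In sex-linked genes, 5 of the 6 untreated arrays went against the label male, and untreated knockout replicate 2 did not, as described at the end. Dendritic cell identity was checked on markers. Itgax (CD11c), an integrin of dendritic cells, had log2 signals of 10.41, 11.00 and 10.98 on knockout and 10.70, 10.73 and 10.80 on wildtype arrays. Zbtb46, a transcription factor of conventional dendritic cells, lay between 8.36 and 8.89 on the 6 arrays. Flt3, the receptor of the growth factor Flt3 ligand, lay between 8.23 and 8.84.

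Of all the genes tested, Psca alone passed the threshold of 0.05 on the adjusted p when the wildtype arrays counted as 1 sample (limma, Benjamini-Hochberg adjustment over all genes). That was 1 gene higher (0.00451% of the genes tested) and 0 lower (0%) in knockout cells, while 897 genes (4.04%) had an unadjusted p under 0.05, 166 of them higher and 731 lower. With 12 separate samples, 6 genes (0.0271%) were higher and 91 (0.41%) were lower. These counts depended on single arrays: leaving out any 1 untreated array other than knockout replicate 1 gave 3 higher and 15 to 24 lower genes. The 6 higher genes were Psca, Them6, Rpl3, Katna1 and the microRNA genes Mirlet7f-1 and Mir599. The 95% interval reached a median of 0.42 log2 units to either side of a gene's difference with 10 samples and 0.28 with 12. An exact permutation test of 3 samples against 1 could not give a p below 0.25, and one of 3 against 3 could not go below 0.1.

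Arc itself was lower on every knockout array. Its log2 signals were 7.81, 7.88 and 8.05 on the untreated knockout arrays and 9.47, 9.24 and 9.46 on the untreated wildtype arrays. The groups did not overlap, and the gap between them was far wider than the spread within either. The difference was -1.48 (SE 0.20), a signal 2.79 times as high in wildtype cells. Its adjusted p was 0.177 with the wildtype arrays as 1 sample, the second smallest of all genes, and 0.00080 with 12 separate samples (limma, Benjamini-Hochberg adjustment). In LPS-treated cells the difference was -1.50, with an adjusted p of 0.00591 in the same fit of 10 samples. The sources used here do not place the probe set within the Arc transcript, nor the part that the allele lacks.

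Psca showed the largest difference of all genes. It encodes prostate stem cell antigen, a small surface protein of the Ly6 family held in the membrane by a GPI anchor, and it is the next measured gene after Arc on chromosome 15. Its log2 signals were 13.07, 12.94 and 13.17 on knockout arrays and 6.99, 7.16 and 6.97 on wildtype arrays. The knockout arrays were thus far above the wildtype arrays without exception. The difference was 6.02 (SE 0.27, 95% interval 5.42 to 6.62), a 65.0-fold higher signal, with an adjusted p of 6.29e-06 with 10 samples and 1.91e-09 with 12 (limma). After LPS the difference was 5.91 with an adjusted p of 2.01e-07, from log2 signals of 12.53 to 12.89 in knockout and 6.38 to 7.23 in wildtype cells. Psca passed the threshold in each of the 27 alternative settings, with differences of 5.96 to 6.08.

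Them6, the second measured gene after Arc and a member of the thioesterase superfamily by its name, was also higher on all knockout arrays. It had log2 signals of 9.53, 9.10 and 9.21 in knockout and 7.72, 7.40 and 7.39 in wildtype cells. The difference was 1.78 (SE 0.30), a 3.44-fold higher signal. It missed the threshold with 10 samples (adjusted p 0.329) and passed with 12 (0.00597, limma). In LPS-treated cells Them6 differed by 1.41, again with no overlap between the genotypes, and the adjusted p was 0.340 with 10 samples. A test of whether the genotype difference itself changed with LPS gave -0.37 (95% interval -1.19 to 0.45) for Them6 and -0.12 (-0.85 to 0.62) for Psca.

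**Figure D1:**
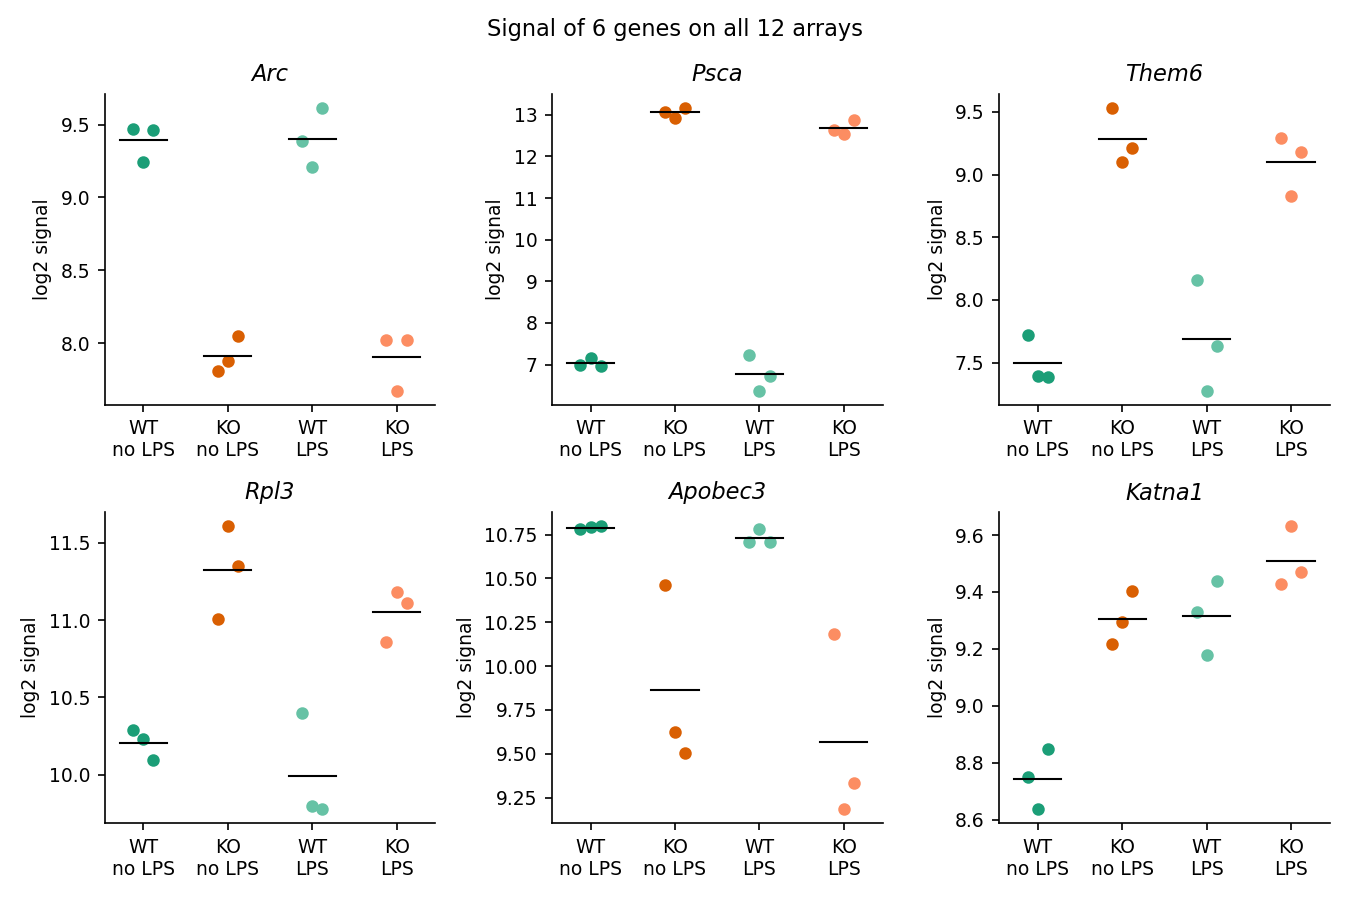
Log2 signal (y axis, its own scale in each panel) of Arc, Psca, Them6, Rpl3, Apobec3 and Katna1 on all 12 arrays, by genotype and treatment (x axis); points are arrays and lines are group means. Psca lies between 12.53 and 13.17 on knockout arrays and between 6.38 and 7.23 on wildtype arrays, and Arc between 7.68 and 8.05 against 9.21 to 9.62.

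The genes around this pair did not share the difference. Among the 50 measured genes nearest to Arc, 25 on each side, Psca passed the threshold with 10 samples, and Psca and Them6 passed with 12. The other 48 differed by -0.61 to 0.49, with a median of -0.04, beside a median of 0.02 over all genes. The lowest was 4930573C08Rik and the highest the microRNA gene Mir30b. Slurp1, the third measured gene after Arc, whose product is a secreted Ly6-type protein, differed by -0.01. Mroh4, the nearest measured gene before Arc, differed by -0.03, and Adgrb1, an adhesion-type receptor that binds apoptotic cells, by 0.03.

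The other Ly6 family genes of this cluster did not pass the threshold in either fit. All 3 knockout arrays lay below all 3 wildtype arrays for 10 of the 50 neighbours, beside 11.6% of all genes and 16.6% to 20.9% of genes with a mean signal of 5 to 7, where 7 of the 10 lay: Ly6a2, Ly6c2, Ly6f, Ly6g2, Ly6i, Lynx1, Lypd2, Slurp2, Gml and 4930573C08Rik. Lynx1, whose product modulates nicotinic acetylcholine receptors, had log2 signals of 6.48, 6.49 and 6.56 in knockout and 6.89, 6.87 and 6.87 in wildtype cells. Its difference of -0.37 had an unadjusted p of 0.0778 with 10 samples. Ly6f was the one gene other than Psca and Them6 with an unadjusted p under 0.05 among these neighbours, at -0.50 (0.0410). Both group means of Ly6f (5.10 and 5.61) lay below 5.89, the lowest median of an array's probe sets without a gene. Those of Ly6g2 (5.02 and 5.34) did as well, so both differences are between signals not above that level. After LPS all 10 overlapped, and the differences were 0.22 for Ly6f, 0.23 for Ly6g2 and 0.05 for Lynx1. All knockout arrays lay above all wildtype arrays for 6 neighbours, beside 17.7% of all genes: Psca, Them6, Ago2, Dennd3, Peg13 and Trappc9. Ago2, the slicing Argonaute protein of RNA interference, differed by 0.24 (log2 signals of 10.18 to 10.27 against 9.98 to 9.99).

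Farther along chromosome 15, a few genes after Arc differed in the same direction with and without LPS. Over all genes, 42 (0.189%) had an unadjusted p under 0.05 in both treatments with the same direction, and 105 had opposite directions. On chromosome 15 there were 9 of 845 measured genes (1.07%), beside 0.155% of genes elsewhere. These were Arc and 8 of the 555 measured genes after it: Psca, Them6, Ncf4, D730005E14Rik, Apobec3, Rpl3, Cyb5r3 and Olfr279. None of the 289 measured genes before Arc was among them.

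Rpl3 encodes a protein of the large ribosomal subunit and is the 168th measured gene after Arc. Its log2 signals were 11.01, 11.61 and 11.35 in knockout and 10.29, 10.23 and 10.09 in wildtype cells. The groups did not overlap, and the difference was 1.12 (SE 0.28), with an adjusted p of 0.755 with 10 samples and 0.0224 with 12 (limma). The call was lost without any 1 of 5 of the 6 untreated arrays, with adjusted p values of 0.0638 to 0.0935 in the 12-sample fit, and was kept without knockout replicate 1 (0.0205). The other probe sets of Rpl3 disagreed with it, at 0.31 and -0.30. After LPS they were at -0.10 and 0.13, beside 1.06 for the one used.

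Apobec3, a cytidine deaminase that restricts retroviruses, is the 165th measured gene after Arc. Its log2 signals were 10.46, 9.63 and 9.51 in knockout and 10.78, 10.79 and 10.80 in wildtype cells. Knockout replicate 1 lay much closer to the wildtype arrays than the other two. The difference was -0.93 (SE 0.40), with an adjusted p of 0.970 with 10 samples and 0.143 with 12, and after LPS it was -1.17. The same replicate stood apart in D730005E14Rik, the measured gene just before Apobec3, with 7.67 beside 6.20 and 6.53 in knockout and 7.90 to 8.27 in wildtype cells. In LPS-treated knockout cells replicate 1 was again the highest for both, at 10.18 beside 9.18 and 9.33 for Apobec3 and 7.38 beside 6.36 and 6.05 for D730005E14Rik.

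Ncf4, a subunit of the phagocyte NADPH oxidase, was higher on every knockout array, at 9.67, 9.84 and 9.62 against 9.15, 9.17 and 9.05. Its difference was 0.59 (SE 0.18), with an adjusted p of 0.970 with 10 samples and 0.0540 with 12 (limma). Cyb5r3, a reductase of cytochrome b5, differed by -0.53 (SE 0.22), with adjusted p values of 0.970 and 0.138. Both had the same sign after LPS, at 0.43 and -0.50.

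**Figure D2:**
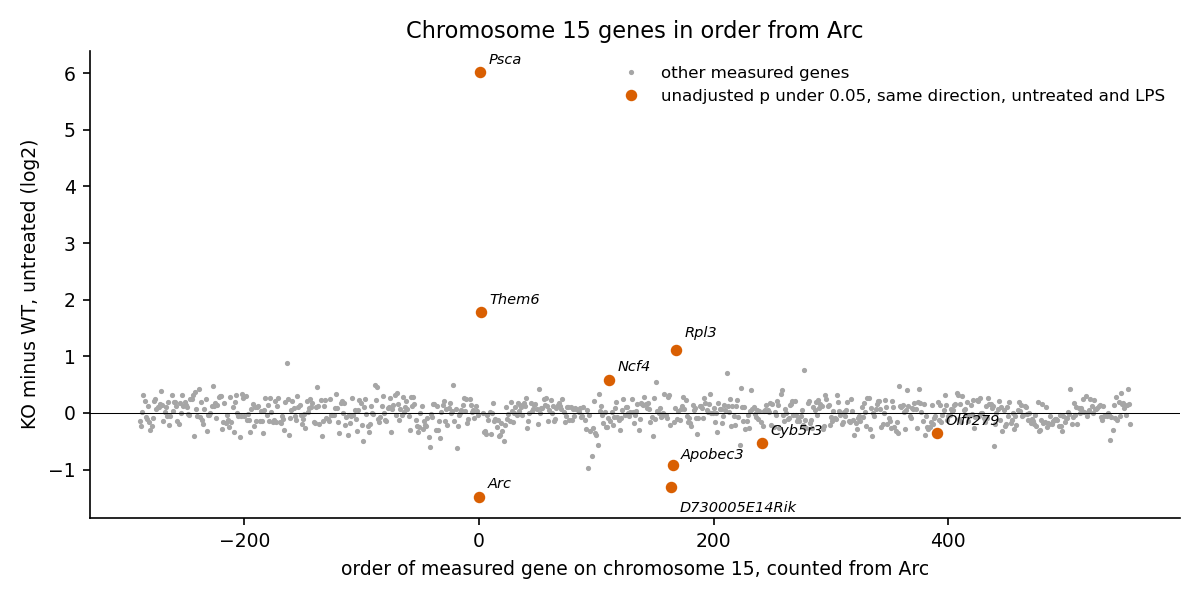
Difference between untreated knockout and wildtype cells (y axis, log2) for 845 measured genes of chromosome 15 in their order counted from Arc (x axis, measured genes). The 9 genes with an unadjusted p under 0.05 in both treatments and the same direction are named; Arc is at 0 and the other 8 lie after it.

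Outside chromosome 15, the genes that passed with 12 separate samples were nearly all lower in knockout cells. Katna1, the catalytic subunit of the microtubule-severing enzyme katanin, was the exception among protein-coding genes, with log2 signals of 9.22, 9.29 and 9.40 against 8.75, 8.64 and 8.85. Its difference was 0.56 (SE 0.16), with an adjusted p of 0.959 with 10 samples and 0.0427 with 12, and a second probe set of the gene differed by 0.05. The call was lost without any 1 of the 6 untreated arrays (0.0585 to 0.152 in the 12-sample fit) and after quantile normalization (0.129). The 91 lower genes, which include Arc as the only one on chromosome 15, differed by -2.38 to -0.55, with a median of -0.91. For 58 of them the knockout mean lay below 5.89, the lowest median of an array's probe sets without a gene, and for 36 both group means did, so these sizes are for signals not above that level. Odorant and vomeronasal receptors, which sense smells and pheromones in the nose, made up 51 of them (39 Olfr and 12 Vmn genes), or 3.66% of the 1394 such genes measured. Predicted genes and Rik clones made up 14 (0.5% of 2799), small RNA genes 5 (0.88% of 568), and all other genes, Arc included, 21 (0.121% of 17419).

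Named genes among these 21, which passed in the fit of 12 samples alone, came from several families. Btbd35f17, whose symbol places it in a BTB-domain family, had log2 signals of 6.58, 6.13 and 6.46 in knockout and 8.05, 8.29 and 7.77 in wildtype cells. Its difference was -1.65 (SE 0.36), with adjusted p values of 0.592 (10 samples) and 0.0143 (12). Zfp600, a zinc finger gene, had 6.01, 5.72 and 6.00 against 6.98, 7.11 and 7.13. Its difference was -1.16, with adjusted p values of 0.959 and 0.0381. Neither gene's groups overlapped, but the naming rule had required separated arrays and a call with 12 samples. The separation is thus a description and adds nothing to the calls.

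Sfi1, whose product binds centrin at the centrosome, had log2 signals of 8.02, 7.50 and 7.82 in knockout and 8.71, 8.69 and 8.60 in wildtype cells. The difference was -0.89 (adjusted p 0.959 and 0.0430), and a second probe set gave -0.53. Zscan4a, of the Zscan4 family that marks the early mouse embryo, had 6.99, 6.91 and 7.03 against 7.75, 7.65 and 7.84, a difference of -0.77 (0.647 and 0.0155). BC061237 differed by -1.71 (0.959 and 0.0410), and all 3 of its probe sets were lower in knockout cells. The remaining named genes were AY358078 (-1.42), Pramel33 of the Prame-like family (-0.74) and Ptprtos (-0.56), a transcript named for the opposite strand of Ptprt. All passed with 12 samples, and the largest of their adjusted p values was that of Ptprtos, 0.0378, beside 0.959 with 10 samples. With 1 of the 6 untreated arrays left out in turn, Zfp600 and Ptprtos passed in 0 fits, Btbd35f17 in 2, and BC061237, AY358078, Sfi1, Zscan4a and Pramel33 in 1 each. After quantile normalization the calls of BC061237 (adjusted p 0.0519), Zfp600 (0.0513) and Sfi1 (0.0618) were lost.

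MicroRNA genes gave 7 of the 97 calls with 12 samples. Of 568 microRNA and other small RNA genes measured, 2 were higher and 5 (0.88%) lower, beside 0.0271% and 0.41% of all genes. The array probes the gene, so that the precursor and its mature products cannot be told apart. Mir761 had log2 signals of 9.18, 8.59 and 8.93 in knockout and 10.17, 9.95 and 10.19 in wildtype cells, a difference of -1.20 (adjusted p 0.571 with 10 samples and 0.0116 with 12, limma). Mir680-2 differed by -1.10 (0.0381 with 12 samples) and Mir713 by -1.07 (0.00654). Mirlet7f-1, a source of a let-7 microRNA, had signals of 6.72, 7.04 and 6.91 against 6.14, 5.88 and 5.66, a difference of 1.00 (adjusted p 0.329 and 0.00917). It passed in the 12-sample fit without any 1 of the untreated arrays. The mature sequences of these genes, from RefSeq (GRCm38.p6), are shown to compare their seeds, bases 2 to 8, which are in capitals and pair with target transcripts.
miR-761, chr4:109017669-109017690, plus strand: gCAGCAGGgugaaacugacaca
miR-680, chrX:144297790-144297810, plus strand: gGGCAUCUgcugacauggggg
miR-713, chr13:62760807-62760825, plus strand: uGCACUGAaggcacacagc
let-7f-5p, chr13:48537889-48537910, minus strand: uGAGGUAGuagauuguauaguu
let-7f-1-3p, chr13:48537833-48537854, minus strand: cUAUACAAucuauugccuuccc
The 5 sequences carry 5 different seeds. The lower genes Mir761, Mir680-2 and Mir713 thus share no seed with each other or with the let-7f arms of Mirlet7f-1. Mir599 (0.87), Mir669j and Mir378a were the other microRNA genes called. Their sequences are not shown and their seeds were not compared.

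Genotype differences followed the level of the signal over the whole array. Among genes with a mean log2 signal of 5 or less, the median difference was -0.15, and between 5 and 6 it was -0.11. Between 8 and 9 it was 0.15, and between 9 and 10 also 0.15. All knockout arrays lay above all wildtype arrays for 3916 genes (17.7%) and below them for 2572 (11.6%). In the band from 9 to 10, 43.5% of genes had the knockout arrays above and 1.1% below. After quantile normalization, which gives every array the same distribution, the band medians were 0.01 to 0.02, and the shares over all genes were 9.81% above and 9.22% below. With 12 samples, 52 genes were called after quantile normalization, 50 of them among the 97, with Arc, Psca, Them6, Rpl3, Btbd35f17, AY358078, Zscan4a, Pramel33 and Ptprtos among the shared ones. Katna1, BC061237, Zfp600 and Sfi1 were called with the deposited values and not after it. Of the 52, 7 were higher and 45 lower, and Ttc9 and Mup5 were the higher genes not called before.

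**Figure D3:**
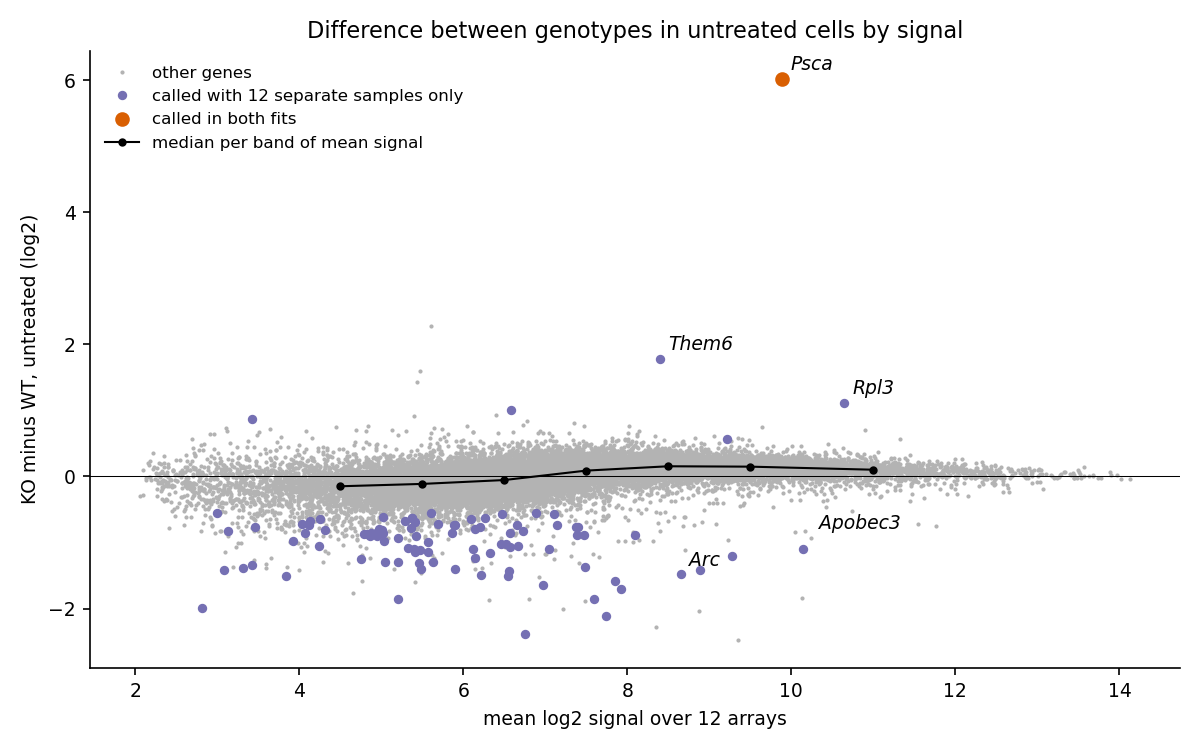
Difference between untreated knockout and wildtype cells (y axis, log2) against the mean log2 signal over 12 arrays (x axis) for 22180 genes; coloured points are the 97 genes called with 12 samples, with Psca called in both fits, and the line joins band medians. The line runs from -0.15 at the lowest signals to 0.15 between 8 and 10.

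The same genes were also measured on the 6 arrays of LPS-treated cells, which were not independent of the untreated ones. Residuals of untreated and LPS-treated knockout arrays with the same number correlated at 0.38, 0.30 and 0.20, and replicate 2 was the only knockout replicate with Y-linked signal in either treatment. Most genes lower in untreated knockout cells were not lower there. Of the 91, 66 had a higher mean in knockout than in wildtype cells after LPS, and the median difference was 0.21 in place of -0.91. Over all genes the median difference after LPS was -0.02. An unadjusted p under 0.05 (limma) was reached by 23 of the 91 in the higher direction and by 5 in the lower direction. Over all genes, 105 had such a p in both treatments with opposite directions and 42 with the same direction. The share of all genes with such a p after LPS alone is not given here, so the 23 and 5 are a description. For 71 of the 91, the 3 untreated wildtype arrays lay above all 9 other arrays of the series, knockout and wildtype, as for 499 genes (2.25%) overall. The calls had already set the wildtype arrays against 3 of those 9, so the share among the 91 is a description. Vmn1r103, a vomeronasal receptor gene named as an example after its values were seen, had untreated wildtype signals of 9.36, 9.09 and 9.09. Its signals were 7.30, 6.76 and 7.16 in untreated knockout, 8.61, 7.27 and 8.10 in LPS-treated knockout and 7.10, 6.55 and 6.43 in LPS-treated wildtype cells.

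By the probe sets used, Arc, the adjacent genes Psca and Them6 and the distant chromosome 15 gene Rpl3 had the same direction with LPS. The other probe sets of Rpl3 changed sign, from 0.31 to -0.10 and from -0.30 to 0.13. Arc differed by -1.48 without LPS and -1.50 with it, Psca by 6.02 and 5.91, Them6 by 1.78 and 1.41, and Rpl3 by 1.12 and 1.06. A test of the interaction of genotype and LPS called 0 genes with 10 samples (limma, 982 with an unadjusted p under 0.05). With 12 samples it called 55 genes, 35 of them among the 97, and 112 genes with the replicate number as a block. The untreated difference enters both the interaction and the 97 calls, so that overlap is a description. Without LPS-treated knockout replicate 2, the fit that counts untreated wildtype as 1 sample called 35.

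**Figure D4:**
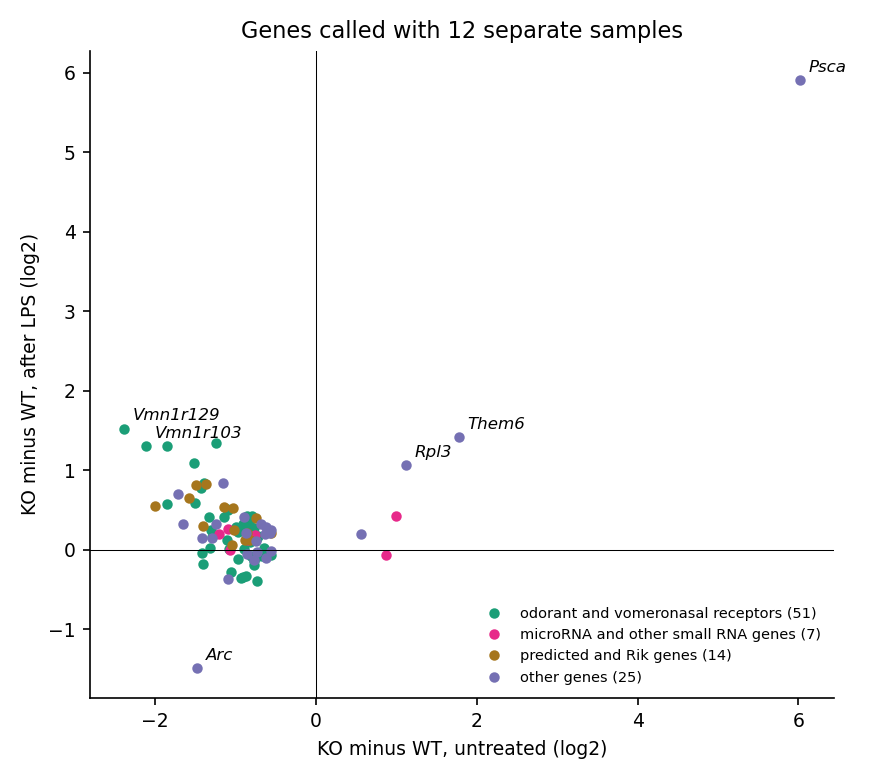
Difference between knockout and wildtype cells after LPS (y axis, log2) against that in untreated cells (x axis, log2) for the 97 genes called with 12 separate samples, coloured by class. Psca, Them6 and Rpl3 are higher and Arc lower in both, while 66 of the 91 genes on the left lie above 0 on the y axis.

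Gene lists for the biology of Arc and of dendritic cells were described by counts. Of 655 symbols on 36 lists, 597 were measured. With 10 samples 0 of the 597 passed the threshold (limma, 6 with an unadjusted p under 0.05), and with 12 samples Rpl3 alone passed. All knockout arrays lay above all wildtype arrays for 108 members and below them for 27, and such genes are called above or below from here on. These counts stand beside 17.7% and 11.6% of all genes, and beside the higher shares above at high signal. Counts after quantile normalization stand beside 9.81% of all genes above and 9.22% below.

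Actin genes had a median difference above 0 with the deposited values, and no member passed the threshold in either fit. Of 41 measured genes for actin nucleation, severing and capping, 16 had all knockout arrays above the wildtype arrays and 1, Coro1a, below. The median difference was 0.11 as deposited and 0.01 after quantile normalization, where 4 were above and 5 below. The list mean was 10.38 to 10.44 on knockout and 10.31 to 10.35 on wildtype arrays. Of all genes with a mean signal above 10, 35.6% were above and 1.79% below as deposited, with a median of 0.10. Fmnl2, a formin that elongates filaments at the leading edge, had log2 signals of 10.21, 9.96 and 10.23 against 9.84, 9.79 and 9.83. Its difference of 0.32 had a 95% interval of -0.08 to 0.71 and an adjusted p of 0.970. Cfl2, a cofilin that severs filaments, differed by 0.23 (interval -0.08 to 0.54).

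Myosin and contractility genes had no call either. Of 19 measured, 10 were above and 0 below, and the median was 0.12 (0.04 after quantile normalization, 2 above and 0 below). The list mean was 9.99 to 10.05 on knockout and 9.88 to 9.91 on wildtype arrays. Of all genes with a mean signal of 9 to 10, 43.5% were above as deposited, with a median of 0.15. Mylk, the kinase of the myosin light chain, had 9.54, 9.50 and 9.64 against 9.24, 9.23 and 9.26, a difference of 0.32 with an adjusted p of 0.970. Myh10, a non-muscle myosin heavy chain, differed by 0.30.

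Adhesion and migration genes showed no call in either fit. Of 24 integrins and adhesion linkers, 5 had the knockout arrays above and 0 below, with a median of 0.09 (-0.01 after quantile normalization). Cd44, a hyaluronan receptor, differed by 0.33 (interval -0.29 to 0.95), and the integrin beta chain Itgb1 by 0.14. Of 18 chemokine receptors and migration genes, S1pr3 was above, and Cx3cr1 and Gpr183 were below. Cx3cr1, the fractalkine receptor, had 7.61, 7.47 and 7.77 against 8.11, 8.23 and 7.98. Its difference of -0.49 had an unadjusted p of 0.0466 and an adjusted p of 0.970, and after LPS it was 0.30. Ackr3, a scavenging chemokine receptor, differed by -0.32 and its groups overlapped. Ccr7, which guides dendritic cells to lymph nodes and was named after its values were seen, had 12.93, 12.73 and 12.88 in knockout and 12.87, 12.83 and 12.84 in wildtype cells. Its difference was 0.00 with a 95% interval of -0.41 to 0.41. Among 16 matrix proteases and inhibitors, Adam10 was above and none below, and the 2 with the smallest p, Timp3 (0.24) and Mmp19 (-0.19), overlapped.

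Partners of the Arc protein and other endocytosis genes numbered 27, with 6 above, 1 below and a median of 0.08 (0.01 after quantile normalization). Sh3gl3, an endophilin of the family that Arc binds, had signals of 6.13, 5.98 and 6.13 against 5.79, 5.86 and 5.71, a difference of 0.29. Dnm1, the dynamin of neurons, was the one below, with 7.08, 7.30 and 7.34 against 7.47, 7.40 and 7.58, a difference of -0.24. Both had an adjusted p of 0.970.

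Dendritic cell identity and maturation genes passed the threshold in neither fit. Of 16 identity genes, Zbtb46 (0.22) and Id2 were above, and none was below. Xcr1, the chemokine receptor of cross-presenting dendritic cells, differed by -0.26 with overlapping groups. Of 22 maturation genes, Cd86, Icosl, Ccl22 and Socs2 were above and none below, with a median of 0.11 (0.02 after quantile normalization). Cd86, a co-stimulatory ligand for T cells, had 11.07, 11.21 and 11.01 against 10.77, 10.87 and 10.92. Its difference was 0.24 with an interval of -0.17 to 0.66, and that of Icosl, another co-stimulatory ligand, was 0.23.

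Antigen presentation genes also had no call. Of 13 genes of MHC class II presentation, Ctsh and H2-DMb1 were above and H2-DMa below, with a median of 0.04. H2-DMb1, a chain of the peptide exchange factor H2-DM, differed by 0.30 (interval -0.24 to 0.84). Ifi30, the thiol reductase of the endosome, differed by 0.07 (interval -0.23 to 0.37). Of 14 MHC class I genes, B2m, Erap1, H2-T23 and Psmb10 were above and none below. Psmb10, an immunoproteasome subunit, differed by 0.26, and Nlrc5, the transactivator of class I genes, by 0.28 with overlapping groups.

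Immediate early genes, the class to which Arc belongs, had no call in either fit. Of 28 measured, Btg2, Egr1, Fos, Ier2, Ier3 and Maff had all knockout arrays below the wildtype arrays, and Dusp5 and Nr4a3 above. The median difference was -0.07 as deposited and -0.16 after quantile normalization, where 10 were below and 0 above. Of all genes, 9.22% were below and 9.81% above after quantile normalization. As deposited, 40.5% of all genes with a mean signal of 8 to 9 were above and 1.61% below. At a mean signal of 9 to 10 these shares were 43.5% and 1.1%. The list as a set was not tested. Fos, a subunit of the AP-1 transcription factor, had log2 signals of 7.14, 7.05 and 6.57 against 7.78, 7.62 and 7.89. Its difference was -0.84 (SE 0.25), with an unadjusted p of 0.00674 and adjusted p values of 0.965 with 10 samples and 0.0530 with 12 (limma). Ier3, a stress-inducible survival gene, had 9.90, 9.88 and 9.66 against 10.30, 10.27 and 10.24, a difference of -0.46 with an adjusted p of 0.970. After LPS the differences were -0.30 for Fos and -0.28 for Ier3.

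Inflammatory genes did not pass the threshold in either fit. Of 29 early inflammatory genes, Ccl5 and Il6 were above and Lif below, with a median of 0.01. Il1b, which encodes interleukin 1 beta, had 10.58, 9.15 and 9.52 in knockout and 10.43, 10.48 and 10.48 in wildtype cells. Knockout replicate 1 thus lay at the wildtype level, and the other two lay below all wildtype arrays. The difference was -0.72 (interval -1.59 to 0.15, adjusted p 0.970), and after LPS it was 0.17. Nos2, the inducible nitric oxide synthase, differed by -0.21 with overlap.

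Signalling and sensing genes had no call either. Of 23 interferon response genes, Gbp5, Isg15 and Mx2 were above and Ifit2 and Ifit3 below. Gbp5, a guanylate-binding protein, differed by 0.33 and Zbp1, a sensor of Z-form nucleic acid, by 0.29. Of 16 genes of NF-kB subunits and feedback, Nfkb2 (0.23) and the inhibitor Nfkbie (0.29) were above. Of 22 Toll-like receptors and adaptors, Irak1 (0.25), Irak2 (0.27), Tlr13 and Traf6 were above, and the LPS co-receptor Cd14 was below. Of 25 other pattern receptors, the scavenger receptor Cd36 (0.43) and the DNA sensor Aim2 (0.17) were above. Of 14 SIRP and CD200 receptor genes, Pilrb1 was above, and the 2 with the smallest p, the inhibitory receptor Pirb (0.28) and Cd200r2 (-0.22, both group means below 5.89), overlapped.

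Markers of other cell types that marrow cultures can hold were compared as well. In bulk samples, fewer cells of a type and less RNA per cell cannot be told apart. Of 19 neutrophil markers, Elane, Lcn2, Mpo and Stfa3 were below and none above, and the median was -0.18 (-0.29 after quantile normalization, 8 below and 0 above). The mean over the list was 8.23 to 8.53 on knockout and 8.48 to 8.54 on wildtype arrays. Of all genes with a mean signal of 8 to 9, 40.5% were above and 1.61% below as deposited. After quantile normalization 9.81% of all genes were above and 9.22% below. The list as a set was not tested. Stfa3, a stefin of neutrophils, had 8.71, 7.88 and 7.82 against 8.76, 8.84 and 8.87, and Camp, the granule peptide cathelicidin, had 7.32, 6.77 and 6.79 against 7.32, 7.22 and 7.54. Knockout replicate 1 was thus the highest knockout array for both, as it was for Il1b. The defining markers Ngp (10.23, 9.89 and 9.76 against 10.02, 10.21 and 10.18), Ltf and S100a8 overlapped. Stfa2, another stefin and the highest member of the list, went the other way at 0.36 and overlapped. The part of these markers in other results was not tested.

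Macrophage and monocyte markers had no call in either fit. Of 16 macrophage identity genes, Gpnmb (0.25) was above and none below, and C1qb, a chain of complement C1q, differed by -0.20. The macrophage markers Adgre1 and Csf1r differed by -0.14 each. Of 9 inflammatory monocyte markers, Ly6c2 was below, with 9.55, 9.15 and 9.67 against 9.87, 9.89 and 9.82, a difference of -0.40 (interval -1.55 to 0.74). F13a1, coagulation factor XIII, differed by -0.37, and the monocyte chemokine receptor Ccr2 by -0.01.

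Other lineages had few separated genes. Siglech, a marker of plasmacytoid dendritic cells, had 6.42, 6.41 and 6.63 against 6.95, 6.79 and 7.12, a difference of -0.47 with an unadjusted p of 0.0274, while Spib, another gene of that list, differed by 0.42. Klrb1c, an NK cell receptor, differed by -0.77 (unadjusted p 0.0337), at signals of 4.79 to 5.32 against 5.49 to 6.20, and Nkg7 by -0.27 with overlap. Blnk, a B cell linker protein, was above (0.44), and the pre-B cell gene Vpreb1 below (-0.19). Of the mast cell proteases, Tpsab1 (-0.30) was below and Cma1 (-0.32) overlapped. Eosinophil markers had no separated gene, with Epx and Ccr3 at -0.19 each. The red cell carbonic anhydrase Car2 was above (0.32) and Car1 (-0.19) overlapped, and the collagen gene Col3a1 (-0.36) was below while the stromal receptor Pdgfra (-0.33) overlapped. All of these had an adjusted p of 0.970. Highest in the mast cell, eosinophil and stromal lists were Cpa3 (0.23), Ear6 (0.18) and Dcn (0.25), which went the other way. The median differences of these lists were -0.05, -0.14 and -0.03 as deposited. After quantile normalization they were 0.02, -0.03 and 0.00. For Klrb1c, Vpreb1, Cma1, Ccr3 and Car1 both group means lay below the lowest median of probe sets without a gene, 5.89, so their differences are between signals not above that level.

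Proliferation and metabolism genes had no call in either fit. Of 28 cell cycle genes, the replication genes Mcm3, Mcm6 and Tk1 were above and none below, with a median of 0.18 (0.05 after quantile normalization, and -0.08 to 0.36 over the settings tried). The list mean overlapped between the groups, at 7.97 to 8.78 on knockout and 8.07 to 8.16 on wildtype arrays. Mcm6, a subunit of the replicative helicase, had 8.97, 9.34 and 8.92 against 8.60, 8.78 and 8.67, a difference of 0.40 (interval -0.25 to 1.05), and Tyms, thymidylate synthase, differed by 0.25. Of 28 respiratory chain genes, 8 were above and 0 below with a median of 0.10, beside 0.15 for all genes with a mean signal of 9 to 10, and after quantile normalization 0 were above and 1 below with a median of -0.00. Ndufs1 (0.27) and Ndufb3 (0.25), subunits of complex I, had the smallest p. Of 16 glycolysis genes none was separated, with Pfkl at 0.19 and Hk1 at 0.12, the latter turning to -0.01 after quantile normalization. Of 14 cholesterol genes, the exporter Abca1 (0.22), Cyp51 and Sqle (0.28), an enzyme of cholesterol synthesis, were above. Of 18 stress genes 7 were above, beside 40.5% of all genes with a mean signal of 8 to 9. The chaperone Hsp90aa1 was at 0.24 and Gclm, an enzyme of glutathione synthesis, at 0.26. Of the 5 peptide transporters, Slc15a4 (0.24) was above and Slc15a5 (-0.34, both group means below 5.89) below.

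**Figure D5:**
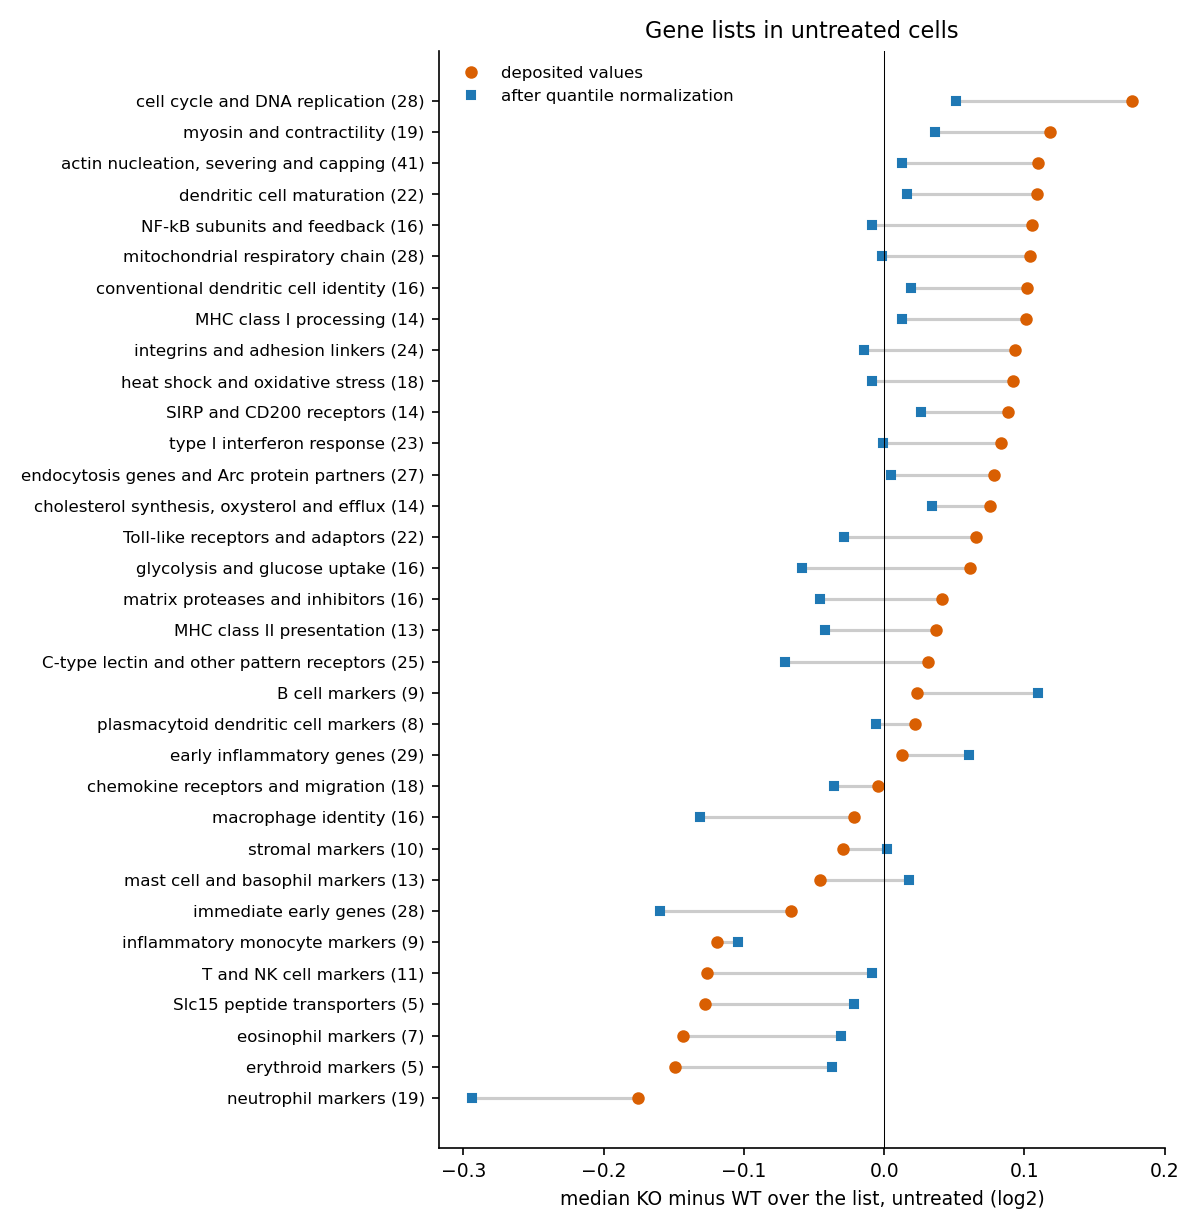
Median difference between untreated knockout and wildtype cells (x axis, log2) for 33 gene lists (y axis, number of measured genes in parentheses), as deposited (circles) and after quantile normalization (squares). The medians run from -0.18 (neutrophil markers) to 0.18 (cell cycle) as deposited, and those of the actin and myosin lists are 0.11 and 0.12 as deposited and 0.01 and 0.04 after quantile normalization.

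Sex-linked genes separated 1 of the 6 arrays. Xist, which silences the second X chromosome in female cells, had log2 signals of 11.44, 5.76 and 11.85 in knockout and 11.49, 11.53 and 11.52 in wildtype cells. Knockout replicate 2, the array with the low Xist signal, had 8.63 for Kdm5d, 9.21 for Uty and 9.89 for Eif2s3y, all on the Y chromosome. These genes lay between 3.60 and 4.63 on the other 5 arrays. All animals are labelled male, so the Xist and Y-linked signals of these 5 arrays go against their label and those of knockout replicate 2 do not. Without knockout replicate 2, the 12-sample fit called 3 genes higher (Psca, Them6 and Mirlet7f-1) and 21 lower, 19 of the 24 among the 97 calls. The lower genes numbered 15 without knockout replicate 3, and 15, 20 and 24 without wildtype replicate 1, 2 and 3, with the same 3 higher genes each time. Without knockout replicate 1 there were 5 higher and 98 lower. Arc passed in each of these 6 fits, with adjusted p values of 0.00330 to 0.0108 (limma).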

How the data were processed

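Total RNA was labelled for 12 microarrays with a WT PLUS kit of Affymetrix, per the labels' protocols. The authors deposited 1 log2 signal per probe set and array. How the arrays were background-corrected and normalized is not stated in the sources used here, and the submitters' processing notes name only limma, with no version number. Among the 34390 probe sets, 1814 carried several genes and 9055 none, and these stayed out of the tests. Of 22180 genes, 22139 were found in a reference table (GRCm38.p6), used for the order of genes alone. The number of arrays limits the precision.

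Differences were tested with limma 3.58.1 (R 4.3.3), by lmFit over all 4 groups and eBayes; the two-sided p-values were adjusted by Benjamini-Hochberg over all genes, with a threshold of 0.05. The mean of the 3 untreated wildtype arrays entered as 1 sample, taken to vary as much as samples elsewhere, so the fit had 10 samples and 6 residual degrees of freedom. A fit of 12 separate samples is given beside it. A gene is called above or below when all 3 knockout arrays lie on that side of all 3 wildtype arrays. The fits were tested on simulated data.

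The comparison, the gene lists and the rules were chosen with earlier results of these data known. Named genes were Arc, up to 15 per direction that passed the threshold with separated arrays and a mean signal above 7 in the higher group (filled from the 12-sample fit; predicted, Rik, small RNA and receptor genes and sex-linked genes left out), up to 4 called genes or else the 2 with the smallest p of each list, and Apobec3, Rpl3 and the sex-linked genes. Defining cell type markers came with the lists. Genes near Arc, microRNA genes, Ccr7 and Vmn1r103 are named outside the rule, after their values were seen. Alternatives were the sample counting, other normalizations, filters, probe set rules, eBayes options, replicate blocks, terms for single arrays and leaving out each array. 1 gene list of the 36 is not reported here.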

Additional observations from a re-analysis of the deposited data

Results flagged for a closer look

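Among the genes named in the report, 3 had a genotype difference that itself differed between untreated and LPS-treated cells by the interaction test, with 12 separate samples and not with 10 (limma, Benjamini-Hochberg adjustment over all genes). For Zfp600 the difference rose by 2.00 log2 units with LPS, from -1.16 to 0.84, with an interaction adjusted p of 0.0353 with 12 samples and 0.411 with 10. For Btbd35f17 it rose by 1.97, from -1.65 to 0.32 (0.0456 and 0.481). For Sfi1 it rose by 1.30, from -0.89 to 0.41 (0.0493 and 0.557). In all 3 genes the untreated wildtype arrays were the highest of their genotype: in Zfp600 they had 6.98, 7.11 and 7.13 beside 6.07, 5.61 and 5.54 after LPS. The naming rule chose these genes by their untreated difference, which is also part of the interaction, so the rises are a description. No cause was tested.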

How the results depend on the processing

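Psca kept its call and direction in all 27 alternative settings, with adjusted p values up to 0.000166. Arc kept its direction in all of them, at -1.64 to -1.43. It passed the threshold where the arrays counted separately: at -1.48 its adjusted p was 0.00080 with 12 samples, 0.00339 with the 6 untreated arrays alone, 0.000113 with a replicate block on 12 arrays and 0.0202 with a replicate block on the 6 untreated arrays. Calls in the same settings were 6 higher and 91 lower, 12 and 179, 20 and 203, and 2 and 75. Replicate numbers did not pair the untreated groups, whose same-numbered residuals correlated at -0.01, -0.05 and -0.02. Those of the 2 knockout groups correlated at 0.38, 0.30 and 0.20. The link was not limited to knockout arrays, as LPS-treated knockout and wildtype cells had 0.34, 0.36 and 0.23. Untreated knockout and LPS-treated wildtype cells had 0.14, 0.20 and 0.18. LPS-treated knockout and untreated wildtype cells had 0.09, 0.11 and 0.01. Leaving out 1 array in turn gave 1 higher gene throughout and 0 to 1 lower, Gm6337 without LPS-treated knockout replicate 1. The following settings of the 12-sample fit were chosen after seeing the data. Quantile normalization gave 45 lower, genes above the median mean signal gave 3 higher and 10 lower, and a term for the arrays with Y-linked signal gave 49 lower. The 6 untreated arrays alone gave 12 higher and 179 lower. Leaving out each untreated array gave 3 to 5 higher and 15 to 98 lower. Hk1 reversed to -0.011 under quantile normalization. Xist reversed to 0.16 with the Y-linked term and to 0.13 without untreated knockout replicate 2, where Kdm5d reversed to -0.044 and Uty to -0.055; over the single arrays left out, Xist ranged from -2.92 to 0.13, Kdm5d from -0.044 to 2.29 and Uty from -0.055 to 2.44. The 12-sample counts rest on treating 3 unusually alike arrays as separate cultures.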
